A study of Mus musculus with 17 samples.

Results

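Markers of the cells that surround or enter an ovarian follicle (theca, smooth muscle, stroma, blood vessels, immune cells and surface epithelium) were followed in RNA-seq counts from cultured mouse follicles. The 40 markers are a list of gene symbols that mark these cells, drawn up with earlier results of these data known, and all 40 were found among the 25198 gene rows of the table. They fall into 6 classes: 4 genes of theca cells and hedgehog targets, 7 of smooth muscle cells and pericytes, 8 of stromal fibroblasts and their matrix, 5 of endothelial cells, 12 of immune cells and 4 of the epithelium on the ovarian surface.

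The follicles came from CD1 mice 16 days old. They had grown to the antral stage over 8 days in eIVFG, a culture system in which each follicle grows encapsulated in a gel. The Tyrphostin group (6 libraries) was exposed for 4 h to 10 µM Tyrphostin-AG1478, an inhibitor of the EGF receptor kinase, in DMSO together with hCG, the gonadotropin that sets off the ovulatory response. The Control group (11 libraries) carries the same treatment text in its labels, so whether Control follicles received hCG or DMSO is not stated. The labels give 3 follicles per sample. The labels name 2 batches: Control 1 to 6 and Tyrphostin 1 to 3 form batch 1, and Control 7 to 11 and Tyrphostin 4 to 6 form batch 2. No label says that libraries came from separate animals or cultures, so the p-values measure the spread between libraries, which may be technical.

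A follicle in the ovary is a ball of granulosa cells around an oocyte, wrapped in a basement membrane and then in the theca. Theca cells make androgens with the enzyme encoded by Cyp17a1, and the granulosa cells turn these into oestrogen. Hedgehog ligands from granulosa cells signal to theca precursors through the receptor Ptch1, and Ptch1 and the effector Gli1 are themselves targets of the pathway. The theca carries the blood vessels and a layer of smooth muscle cells, and macrophages gather around follicles before ovulation. Granulosa cells have no vessels of their own. A follicle taken out for culture keeps only those theca, stromal and immune cells that stay attached to it.

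Most immune markers had their highest level in 1 and the same library, Tyrphostin 5. Sequence is shown upstream of 3 of them that hold the motif marked below, so its presence in these 3 is not a result. RefSeq promoter windows (GRCm38.p6, 250 bases before to 50 after the start of the gene) were at hand for 23 of the 40 markers. The 7 letters AGGAAGT, the core bound by ETS-family factors such as PU.1 of myeloid cells, were searched on both strands and are in capitals below, where they read ACTTCCT. This motif was chosen after several had been searched. The windows, each on the minus strand and written 5′ to 3′, are chr4:136886151-136886450 for C1qb, chr4:136892865-136893164 for C1qc and chr10:117282223-117282522 for Lyz2.
C1qb: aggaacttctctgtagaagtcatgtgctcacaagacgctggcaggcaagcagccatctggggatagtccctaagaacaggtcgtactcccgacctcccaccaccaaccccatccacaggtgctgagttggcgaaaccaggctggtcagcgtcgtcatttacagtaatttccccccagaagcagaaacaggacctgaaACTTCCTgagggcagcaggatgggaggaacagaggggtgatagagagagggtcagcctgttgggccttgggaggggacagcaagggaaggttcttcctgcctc
C1qc: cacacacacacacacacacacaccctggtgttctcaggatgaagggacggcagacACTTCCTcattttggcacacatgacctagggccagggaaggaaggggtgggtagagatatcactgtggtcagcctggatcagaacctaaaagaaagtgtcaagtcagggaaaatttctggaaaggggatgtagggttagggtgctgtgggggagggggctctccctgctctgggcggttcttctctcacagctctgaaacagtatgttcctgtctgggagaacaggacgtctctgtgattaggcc
Lyz2: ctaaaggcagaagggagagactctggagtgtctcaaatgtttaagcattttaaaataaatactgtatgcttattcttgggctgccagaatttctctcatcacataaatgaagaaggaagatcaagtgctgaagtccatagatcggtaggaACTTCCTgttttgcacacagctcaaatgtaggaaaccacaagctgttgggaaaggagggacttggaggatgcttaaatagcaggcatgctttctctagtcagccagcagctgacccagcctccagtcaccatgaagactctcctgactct
Counted from the start of the gene, the motif begins at position -53 in C1qb, -195 in C1qc and -100 in Lyz2. It was present in 5 of the 7 immune markers with a window (Ptprc, Lyz2, C1qb, C1qc and Mrc1), in 8 of all 23 markers and in 10.7% of 27025 genes. Cd68 and Fcer1g had windows without it, although both were highest in Tyrphostin 5. Mrc1 holds it and was highest in Control 2. A link between the motif and these levels was not tested. A match is a stretch of letters and not evidence that a factor binds there.

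Depth per library was lowest in Control 6, with 1820545 counts, and highest in Control 8, with 8291024. The limit that a count of 0 allows, 3 counts, is 0.336 CPM in Control 8 and 1.64 CPM in Control 6. CPM are counts scaled to a common library total after TMM, and intervals and floors cover counting error only. The 12 granulosa genes used as an identity check summed to between 52998 and 81582 CPM in every library, and the 12 oocyte genes to between 29.1 and 320 CPM. Granulosa identity genes were thus abundant in every library, as the label of ovarian follicles asks, and oocyte genes were present. The mitochondrial share of counts was 0.175% in Control 7, while Control 8 to 11 of the same batch had 1.74% to 1.94%. In Tyrphostin it was 0.781%, 1.32% and 0.797% in batch 2 and 1.55% to 2.50% in batch 1, and its part in the results was not tested. Control 7 and Control 8 share a set number in the library names, and results that rest on them are given with and without them.

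Of the 40 markers, 15 passed the filter on low counts, and each of these had a count in all 17 libraries. The other 25 never exceeded 76 counts in any library, and 11 of them never exceeded 9. Per kilobase of exon, counting the exons of all annotated transcripts, the highest mean level was 88.1 CPM per kb for Lyz2. Fbln1 followed at 63.6 and Cyp17a1 at 53.8. Then came Dcn at 16.2, Mgp at 14.3 and Acta2 at 14.02 CPM per kb. The first place of Lyz2 holds for the mean, which a few high libraries raised. Not divided by length, Lyz2 reached 436 CPM in Control and 819 CPM in Tyrphostin, but its medians were 39.1 and 33.4 CPM. Those of Fbln1 were 213 CPM in Control and 248 CPM in Tyrphostin. Cdh5, the leading endothelial marker, was at 4.72 CPM per kb, and Krt8, the leading epithelial one, at 1.24. On this scale the lowest was Ptprc, which encodes the pan-leukocyte antigen CD45, at 0.0312 CPM per kb. Its place depends on the length used, 18313 bases. By CPM alone the lowest mean was 0.121, for Upk3b, and that of Ptprc was 0.572. The matrix genes were spread widely, since Ogn was at 0.326 and Postn at 0.0585 CPM per kb. In bulk RNA, fewer cells of a type and less RNA per cell cannot be told apart.

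**Figure D1:**
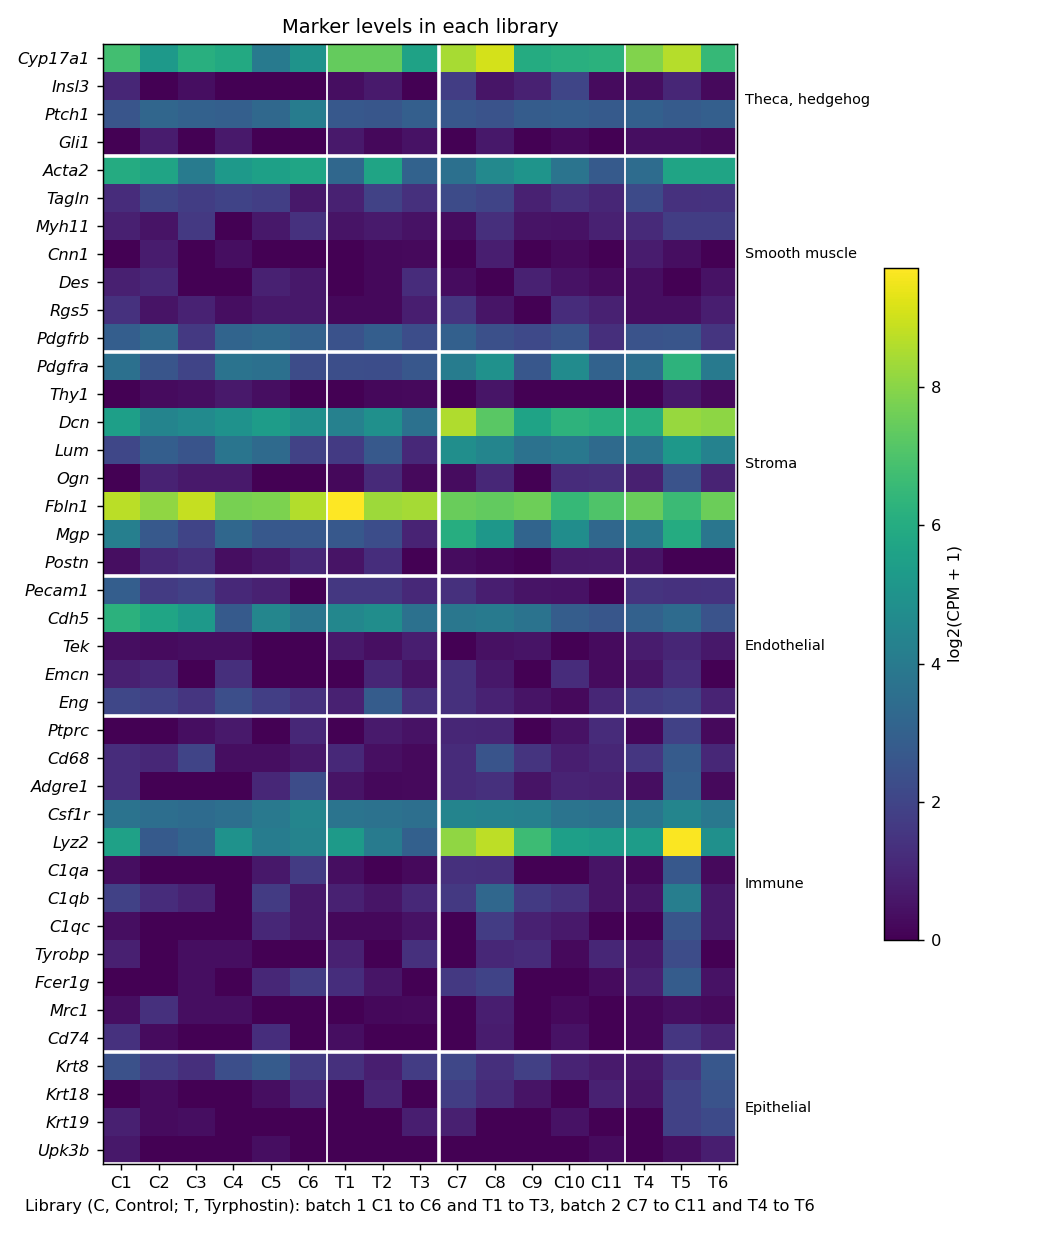
Level of each of the 40 markers (rows, grouped by class) in each of the 17 libraries (columns, ordered by batch and group), as log2(CPM + 1) by colour. Cyp17a1, Fbln1, Dcn and Lyz2 are the bright rows, most endothelial, immune and epithelial rows are dark, and the column of Tyrphostin 5 is bright across the immune rows.

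No marker of any class passed the test for a change with Tyrphostin. Over the 17 libraries, with batch as a term in edgeR's quasi-likelihood test and Benjamini-Hochberg adjustment over all genes, 0 of the 15 tested markers passed an adjusted p of 0.05, where 10.6% of the 9603 genes tested did. At an unadjusted p under 0.05 the count was also 0 of 15, against 23.7% of all genes. DESeq2 and limma-voom called 0 as well, where they called 1313 and 1126 of 9603 genes. A fit with no filter on low counts tested all 40 markers and called 0, where 925 of 21622 genes were called. In that fit 2 markers had an unadjusted p under 0.05, and the share of all genes there was not counted. The lowest adjusted p was 0.345, for Cdh5. Among the markers, 6 log2 fold changes were positive and 9 negative, with a median of -0.08, and the quartiles of all genes were -0.27 and 0.27. Scaling to total counts instead of TMM moved the median of all genes by 0.145 and gave 9 positive and 6 negative markers. The intervals were wide: that of Lyz2 (95%) ran from -1.11 to 1.83 on the log2 scale, and that of Csf1r, the narrowest, from -0.45 to 0.29.

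**Figure D2:**
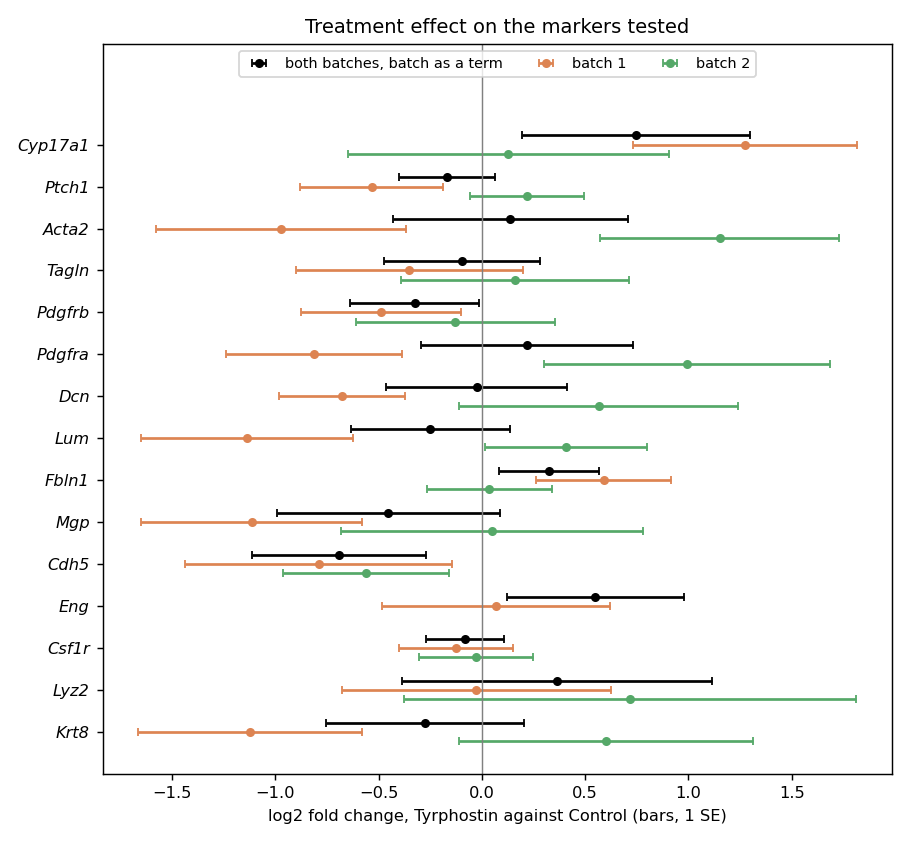
Log2 fold change of Tyrphostin against Control (horizontal axis, bars 1 SE) for the 15 markers tested, over both batches with batch as a term (black), in batch 1 (orange) and in batch 2 (green). No marker passed an adjusted p of 0.05, and most batch 1 points lie left of 0 while most batch 2 points lie right of it. Eng was not tested in batch 2.

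Cyp17a1 (chr19:46667165-46673172, minus strand, GENCODE M21 on GRCm38), the theca enzyme of androgen synthesis, was the best measured theca marker. In Control it read 110, 36.5, 69.0, 58.9, 14.96 and 30.7 CPM in libraries 1 to 6 of batch 1. The 5 Control libraries of batch 2 read 350, 548, 61.7, 69.6 and 74.1 CPM. Tyrphostin libraries read 170, 170 and 47.0 CPM in batch 1 and 236, 397 and 90.8 CPM in batch 2. In each batch the Tyrphostin values overlapped those of Control, and Control 7 and Control 8 were among the 3 highest of all libraries. The log2 fold change was 0.75 ± 0.55 (SE, adjusted p = 0.456) over both batches. Within batch 1 it was 1.27 ± 0.54 (edgeR, p = 0.0387, adjusted p = 0.207) and within batch 2 it was 0.13 ± 0.78 (adjusted p = 0.975). The difference between the batches' effects was -1.15 ± 1.11 (adjusted p = 1.00).

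Insl3, a peptide hormone of theca and Leydig cells, never passed 3.07 CPM (16 counts, in Control 10) and was at 0 in 4 Control libraries and 1 Tyrphostin library. Its counts are uncertain besides, because 64.8% of its exonic bases overlap Jak3 and Smart-Seq2 does not mark strand. Per length, the mean level of Insl3 was 1.02 CPM per kb against 53.8 for Cyp17a1. The hedgehog receptor and target Ptch1 was at 4.59 to 15.9 CPM in Control, with a median of 6.52, and at 5.13 to 6.86 CPM in Tyrphostin, with a median of 6.28. Its log2 fold change was -0.17 ± 0.23 (adjusted p = 0.723). The transcriptional effector Gli1 never passed 5 counts.

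Of a list of 10 further hedgehog pathway genes, 7 were tested, and 1 rose and 2 fell with Tyrphostin, where 10.6% of all genes tested were called in either direction. The ligand gene Ihh rose by 1.81 ± 0.49 (SE) on the log2 scale (edgeR adjusted p = 0.0186). Hhip, which encodes a membrane protein that binds hedgehog ligands, fell by 1.13 ± 0.31 (adjusted p = 0.0202), and the co-receptor gene Boc fell by 0.73 ± 0.20 (adjusted p = 0.0216). Ihh read a log2 fold change of 2.91 ± 0.51 in batch 1 (adjusted p = 0.00168) and 0.52 ± 0.63 in batch 2 (adjusted p = 0.859), and the difference between these did not pass (adjusted p = 1.00). Of the 2 target genes among the markers, Ptch1 did not pass the test and Gli1 did not pass the filter on low counts. As a reading of the treatment in the same libraries, 5 of 10 tested granulosa genes rose, against the same 10.6%, among them the aromatase gene Cyp19a1 by 2.35 ± 0.22 (adjusted p = 2.8e-07).

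The contractile genes of smooth muscle were led by Acta2 (chr19:34241090-34255590, minus strand), which encodes smooth muscle alpha actin. Control libraries of batch 1 read 63.1, 49.8, 15.5, 36.5, 45.7 and 52.0 CPM, and those of batch 2 read 11.0, 22.7, 31.7, 12.5 and 5.76 CPM. Tyrphostin libraries read 8.61, 50.7 and 7.41 CPM in batch 1 and 9.88, 49.9 and 50.7 CPM in batch 2. Tyrphostin libraries fell into a low set of 3 and a high set of 3, and both sets spanned the batches. The log2 fold change was 0.14 ± 0.57 (adjusted p = 0.922), with -0.97 ± 0.61 in batch 1 and 1.15 ± 0.58 in batch 2. Neither passed within its batch, except that Acta2 passed the adjusted test in batch 1 when Tyrphostin 2, the high library there, was left out. The difference between the batches was 2.12 ± 0.97 (p = 0.0437 in edgeR's test, adjusted p = 1.00). Of the 9603 genes tested, 0 (0%) passed edgeR's adjusted test of that difference and 3.56% passed it unadjusted. Reads of Acta2 may also be shared with other actin genes, whose handling is not given in the sources used here.

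The other smooth muscle markers lay closer to the floor. Tagln, an actin-binding protein of smooth muscle, was at 0.547 to 3.67 CPM, but 67.9% of its exonic bases overlap Pcsk7 and Gm48529. Its log2 fold change was -0.10 ± 0.38. Pdgfrb, the receptor of pericytes and stromal cells, was at 1.49 to 9.34 CPM with a log2 fold change of -0.33 ± 0.31 (adjusted p = 0.584). Myh11, the smooth muscle myosin heavy chain, read 0 to 2.09 CPM in Control (median 0.564) and 0.390 to 2.43 CPM in Tyrphostin (median 0.928), and its highest count was 13. Cnn1, Des and Rgs5 never passed 7 counts. Of 8 further smooth muscle and pericyte genes, 5 were tested and 0 changed.

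Fbln1 and Dcn had the highest mean levels of the stromal matrix genes. Fbln1 (chr15:85205949-85286535, plus strand) encodes fibulin-1, a glycoprotein of basement membranes and elastic fibres. It read 425, 279, 470, 213, 225 and 388 CPM in Control of batch 1 and 180, 166, 189, 91.4 and 131 CPM in Control of batch 2. Tyrphostin libraries read 846, 311 and 342 CPM in batch 1 and 179, 98.6 and 186 CPM in batch 2. Tyrphostin 1 stood highest of all, and every library of batch 2 was below every library of batch 1 in both groups. Among Control libraries Dcn, Lum and Mgp went the other way and were higher in batch 2. The stromal sum in Tyrphostin 1 was 877 CPM with Fbln1 and 30.7 CPM without it, so that sum mainly follows Fbln1 there. The log2 fold change with Tyrphostin was 0.32 ± 0.24 (adjusted p = 0.451).

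Dcn and Lum, which encode the collagen-binding proteoglycans decorin and lumican, are neighbours on chromosome 10 (Dcn at chr10:97479609-97518143 and Lum at chr10:97565128-97572703, both plus strand). Dcn read 19.8 to 43.9 CPM in the 6 Control libraries of batch 1 and 382, 150, 49.5, 76.9 and 66.8 CPM in those of batch 2. Tyrphostin libraries read 18.5, 28.3 and 11.3 CPM in batch 1 and 67.9, 299 and 272 CPM in batch 2. Its log2 fold change was -0.03 ± 0.44 (adjusted p = 0.982), and that of Lum was -0.25 ± 0.39 (adjusted p = 0.761). Mgp, the inhibitor of matrix calcification, read 2.99 to 65.6 CPM in Control and 0.976 to 63.1 CPM in Tyrphostin, with a log2 fold change of -0.45 ± 0.54 (adjusted p = 0.675). Dcn, Lum and Mgp are named with values because they differed between batches; they were chosen after their values were seen.

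Pdgfra, the receptor that marks fibroblasts and theca precursors, read 2.99 to 29.4 CPM in Control (median 11.0). In Tyrphostin it read 4.02, 3.88 and 5.27 CPM in batch 1 and 10.3, 77.4 and 15.1 CPM in batch 2. Tyrphostin 5 was more than 2 times any other library, and the log2 fold change was 0.22 ± 0.51 (adjusted p = 0.853), or -0.62 without Tyrphostin 5 (adjusted p = 0.346). Thy1, Ogn and Postn did not pass the filter on low counts, with at most 17 counts in a library. Of 13 further theca and stroma genes, 12 were tested and 0 changed over both batches. Within batch 1, 3 of 12 tested genes of that list were called, where 6.73% of 9423 genes were. These were the collagen genes Col6a1, Col1a1 and Col1a2, which fell, with log2 fold changes of -1.14 ± 0.23, -1.204 ± 0.32 and -1.28 ± 0.36 (edgeR adjusted p = 0.00489, 0.0270 and 0.0442). In batch 2 the same genes read 1.00 ± 0.38, 1.11 ± 0.49 and 0.88 ± 0.57 (adjusted p = 0.348, 0.443 and 0.665). The difference between the batches was 2.14 ± 0.45 for Col6a1 (edgeR p = 8.8e-05, adjusted p = 0.845), and it did not pass for Col1a1 or Col1a2 (adjusted p = 1.00 for both).

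Within batch 1, 0 of 15 tested markers passed an adjusted p of 0.05, where 6.73% of 9423 genes did. At an unadjusted p of 0.05, 3 of the 15 passed, close to the 21.2% of all genes that did. The 3 markers were Cyp17a1, Dcn at -0.68 ± 0.31 (p = 0.0399 in edgeR's test, adjusted p = 0.210) and Lum at -1.14 ± 0.52 (p = 0.0408, adjusted p = 0.211). In that batch 12 of the 15 log2 fold changes were negative, with a median of -0.53 against 0.02 for all genes. Within batch 2, 0 of 14 tested markers passed either threshold, where 0.621% of 9830 genes passed the adjusted one and 10.7% the unadjusted one. There 11 of the 14 log2 fold changes were positive, with a median of 0.19 against -0.01 for all genes. The interaction of treatment and batch called 0 of the 15 markers. Lum (1.54 ± 0.70, p = 0.0386) and Acta2 passed it unadjusted by edgeR, as did 3.56% of all genes tested.

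Among endothelial markers, Cdh5 (chr8:104101625-104144511, plus strand), the adhesion protein VE-cadherin, was the readable one. Control libraries 1, 2 and 3 read 76.0, 52.3 and 36.8 CPM, and the other Control libraries of batch 1 read 5.80, 20.9 and 12.6 CPM. The 5 Control libraries of batch 2 read 13.6, 14.8, 12.2, 6.33 and 5.12 CPM. Tyrphostin libraries read 21.95, 25.9 and 11.5 CPM in batch 1 and 7.13, 9.43 and 4.66 CPM in batch 2. The 3 highest libraries were all Control and carried the same set number, and the remaining ones of both groups overlapped. The log2 fold change was -0.69 ± 0.42 (adjusted p = 0.345), negative within batch 1 (-0.79 ± 0.65) and within batch 2 (-0.56 ± 0.40).

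The other endothelial markers were lower than Cdh5. Pecam1, the adhesion molecule CD31, read 0 to 6.47 CPM in Control (median 0.847) and 1.17 to 2.02 CPM in Tyrphostin (median 1.73), and its highest value was also in Control 1. Eng, the TGF-beta co-receptor endoglin, read 0.192 to 4.06 CPM in Control and 0.861 to 6.06 CPM in Tyrphostin, with a log2 fold change of 0.55 ± 0.43 (adjusted p = 0.482). Tek, the angiopoietin receptor, and Emcn, endomucin, never passed 7 counts. Of 10 further endothelial genes, 2 were tested and 0 changed, and the red blood cell genes summed to at most 1.95 CPM.

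Among immune markers, 2 of 12 passed the filter on low counts. Lyz2 (chr10:117277331-117282321, minus strand), the lysozyme of macrophages and neutrophils, varied more between libraries than any other readable marker. Control libraries read 46.1, 5.78, 7.77, 30.2, 16.1 and 19.2 CPM in batch 1 and 277, 436, 99.5, 44.3 and 39.1 CPM in batch 2. Tyrphostin libraries read 38.5, 15.7 and 6.83 CPM in batch 1 and 40.7, 819 and 28.4 CPM in batch 2. Of the 3 Tyrphostin libraries of batch 2, only Tyrphostin 5 lay above the Control median of that batch, 99.5 CPM. In batch 1 only Tyrphostin 1 lay above the Control median, 17.6 CPM. The log2 fold change was 0.36 ± 0.75 (adjusted p = 0.830), and it was -0.86 without Tyrphostin 5 (adjusted p = 0.545). Reads shared with the paralogue Lyz1 could not be separated from these counts.

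Csf1r, the receptor for the macrophage growth factor CSF1, did not follow Lyz2. It read 9.56 to 20.3 CPM in Control (median 12.3) and 10.7 to 20.5 CPM in Tyrphostin (median 12.6), with a log2 fold change of -0.08 ± 0.19 (adjusted p = 0.845). Reads from the 15.1% of its exonic bases that overlap Hmgxb3 could not be set apart. Ptprc read 0 to 1.28 CPM in Control and 0 to 2.70 CPM in Tyrphostin, and Adgre1, the macrophage antigen F4/80, read 0 to 3.83 CPM in Control and 0.155 to 6.74 CPM in Tyrphostin. Both had their highest value in Tyrphostin 5, with 10 counts for Ptprc and 25 for Adgre1.

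Tyrphostin 5 held the highest level of 11 of the 12 immune markers, all but the mannose receptor gene Mrc1. Of all 21622 genes with a count, 6.53% had their highest level in that library, which held 3077632 counts. The complement genes C1qa, C1qb and C1qc, which lie side by side on chromosome 4, read 5.39, 16.7 and 4.85 CPM there. The other libraries apart from Control 8 reached at most 2.19, 2.70 and 1.13 CPM for these 3 genes. Cd68, a lysosomal protein of macrophages, read 5.93 CPM, and the signalling adaptors Fcer1g and Tyrobp read 6.20 and 3.77 CPM. Cd74, the invariant chain of antigen presentation, read 1.89 CPM from 7 counts. Control 8 had the second highest value of C1qb, at 8.52 CPM, and of Lyz2.

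The 12 immune markers together made up 0.108% of the counts in Tyrphostin 5 (95% Wilson interval 0.104% to 0.111%). Their summed level was 894 CPM there, 480 CPM in Control 8, 307 CPM in Control 7 and 20.5 to 124 CPM in the other 14 libraries. Without Lyz2 the sum was 74.9 CPM in Tyrphostin 5 and 12.2 to 43.9 CPM in the other 16. With Lyz2 in the sum, the 3 highest libraries were 1 Tyrphostin and 2 Control libraries of batch 2. Without it, Control 6 of batch 1, at 31.2 CPM, was above Control 7, at 29.1 CPM. A further list of 12 immune genes summed to 46.6 CPM in Tyrphostin 5 and 48.9 CPM in Control 8, against 4.48 to 17.1 CPM in the rest. In Tyrphostin 5, Ctss gave 28.0 CPM of that sum and Cd14 gave 11.3 CPM. Only 3 of the 11 further genes with a count were highest in Tyrphostin 5, and 2 were highest in Control 8. Stromal collagen genes were also high in Tyrphostin 5, with 8 of 13 further theca and stroma genes at their highest there, and the granulosa sum was lowest there, at 52998 CPM against 62690 or more elsewhere. The part of these differences in the Tyrphostin 5 values was not tested.

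**Figure D3:**
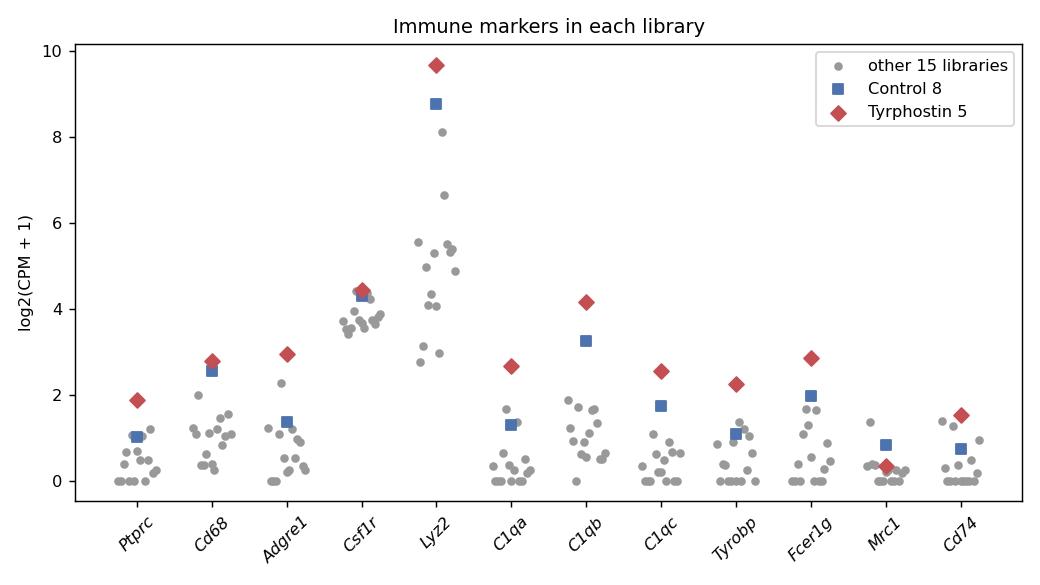
Level of the 12 immune markers (horizontal axis) in each library as log2(CPM + 1), with Tyrphostin 5 (red diamonds), Control 8 (blue squares) and the other 15 libraries (grey). Tyrphostin 5 is the highest point for 11 of the 12 markers, while Csf1r lies close together in all libraries.

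Of the epithelial markers, Krt8 reached 3 counts in all 17 libraries, Krt18 in 7, Krt19 in 5 and Upk3b in 1. Krt8 (chr15:101996698-102004482, minus strand), a keratin of simple epithelia, read 0.640 to 5.93 CPM in Control (median 2.22) and 0.549 to 5.22 CPM in Tyrphostin (median 1.73), with a log2 fold change of -0.28 ± 0.48 (adjusted p = 0.791). Krt19 read 0 to 0.809 CPM in Control, with 6 of 11 libraries at 0. In Tyrphostin it read 0, 0 and 0.780 CPM in batch 1 and 0, 2.70 and 3.54 CPM in batch 2. Krt18, Krt19 and Upk3b, a uroplakin of mesothelium and surface epithelium, were each highest in Tyrphostin 6, where Krt18 read 4.66 CPM. That library also had the highest oocyte sum, 320 CPM, and the part this plays was not tested. None of the 6 further surface epithelium genes passed the filter on low counts.

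**Figure D4:**
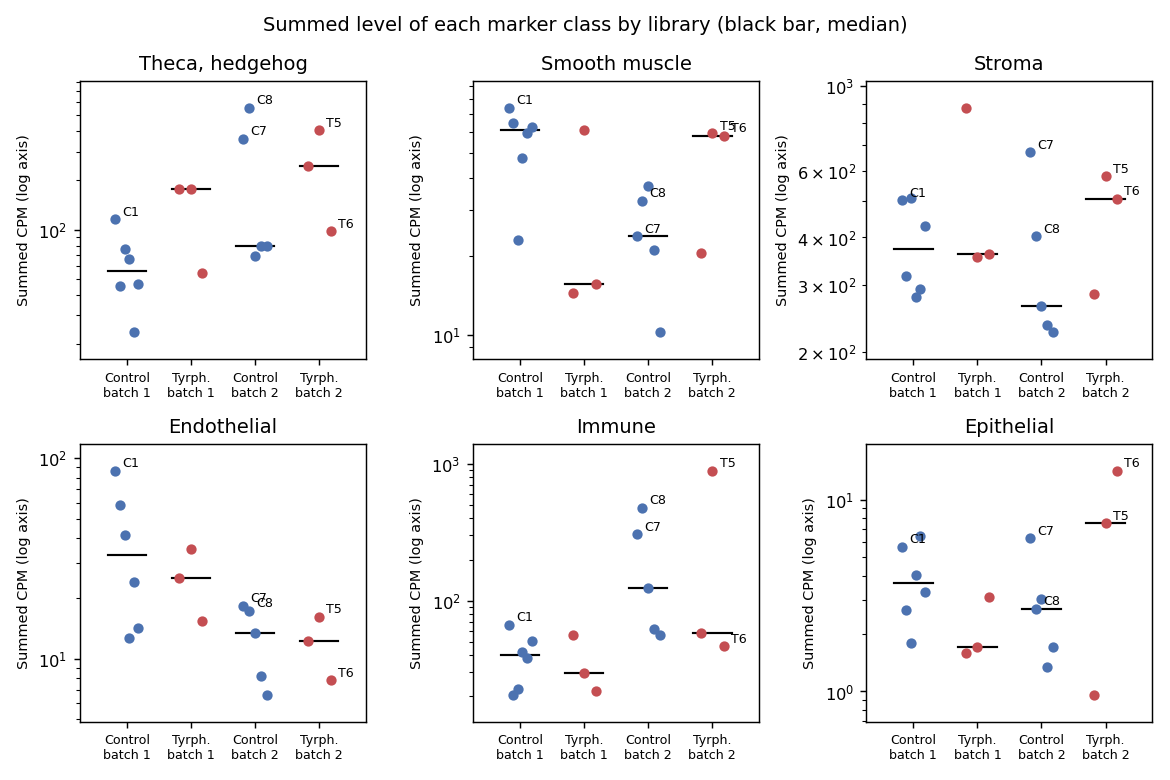
Summed CPM of each marker class (vertical, log axis) by library, grouped by treatment and batch, with the median of each group as a black bar. Tyrphostin and Control overlap in every panel over both batches, and Tyrphostin 5, Control 7 and Control 8 are the high points of the immune panel.

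Several markers differed between the batches. Among the 11 Control libraries, batch 2 against batch 1, 6 of the 13 tested markers passed an adjusted p of 0.05, 4 higher and 2 lower in batch 2, where 5.5% of 9128 genes were called higher and 5.5% lower. With total counts in place of TMM the split of all genes called moved to 76.3% higher, and the median of all genes shifted by 0.187, from 0.0414 to 0.228. Higher in batch 2 were Dcn by 2.21 ± 0.46 (SE, log2 scale, edgeR adjusted p = 0.00920), Lyz2 by 3.11 ± 0.72 (adjusted p = 0.0188), Lum by 1.32 ± 0.37 (adjusted p = 0.0280) and Mgp by 1.91 ± 0.55 (adjusted p = 0.0399). Lower in batch 2 were Fbln1, which fell by 1.13 ± 0.26 (adjusted p = 0.00991), and Acta2, which fell by 1.39 ± 0.40 (adjusted p = 0.0364). Cdh5 at -1.72 ± 0.56 (adjusted p = 0.0682) and Cyp17a1 at 2.05 ± 0.66 (adjusted p = 0.0713) did not pass in edgeR. DESeq2 called both, and edgeR with total counts called Cyp17a1.

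Part of these calls rested on Control 7 and Control 8. With both left out, 3 of 14 tested markers passed, namely Dcn, Fbln1 and Eng, where 902 of 9534 genes did. In that fit Lyz2 was at 1.55 (edgeR adjusted p = 0.143), Lum at 0.83 (adjusted p = 0.197) and Mgp at 0.95 (adjusted p = 0.263). With 1 Control library left out in turn, Lyz2 kept its call in 10 of 11 fits, Lum in 6, Acta2 in 4 and Mgp in 3. Leaving out Control 7 alone left Dcn and Fbln1, 2 of 13 tested markers, with 1063 of 9313 genes called. Leaving out Control 2 left Dcn, Fbln1 and Lyz2, 3 of 13, with 699 of 8987 genes called. Dcn and Fbln1 passed under every alternative run for this comparison, but the size of the Dcn difference was 1.4975 without Control 7 and 1.08 without Control 7 and Control 8 (adjusted p = 0.00331 and 0.00872). Fbln1 read -1.27 without both (adjusted p = 0.0122). The Tyrphostin libraries, which that fit did not use, can be set beside these values. In them, 5 of the 15 tested markers (Pdgfra, Dcn, Lum, Mgp and Csf1r) were higher in each of the 3 batch 2 libraries than in each of the 3 of batch 1, as were 13.2% of all genes tested. Fbln1 and Cdh5 were lower in each, as were 11.7% of all genes. In Control and Tyrphostin alike, 2.22% of all genes tested lay wholly above and 2.18% wholly below, and among the 15 tested markers only Dcn and Fbln1 did. The batches differ in library set numbers as well, and batch cannot be told apart from those sets. Control libraries carry set 1 or 2 in batch 1 and set 4, 5 or 6 in batch 2. The fit over Control libraries took those of 1 set as separate, and no alternative with sets summed was run for it.

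**Figure D5:**
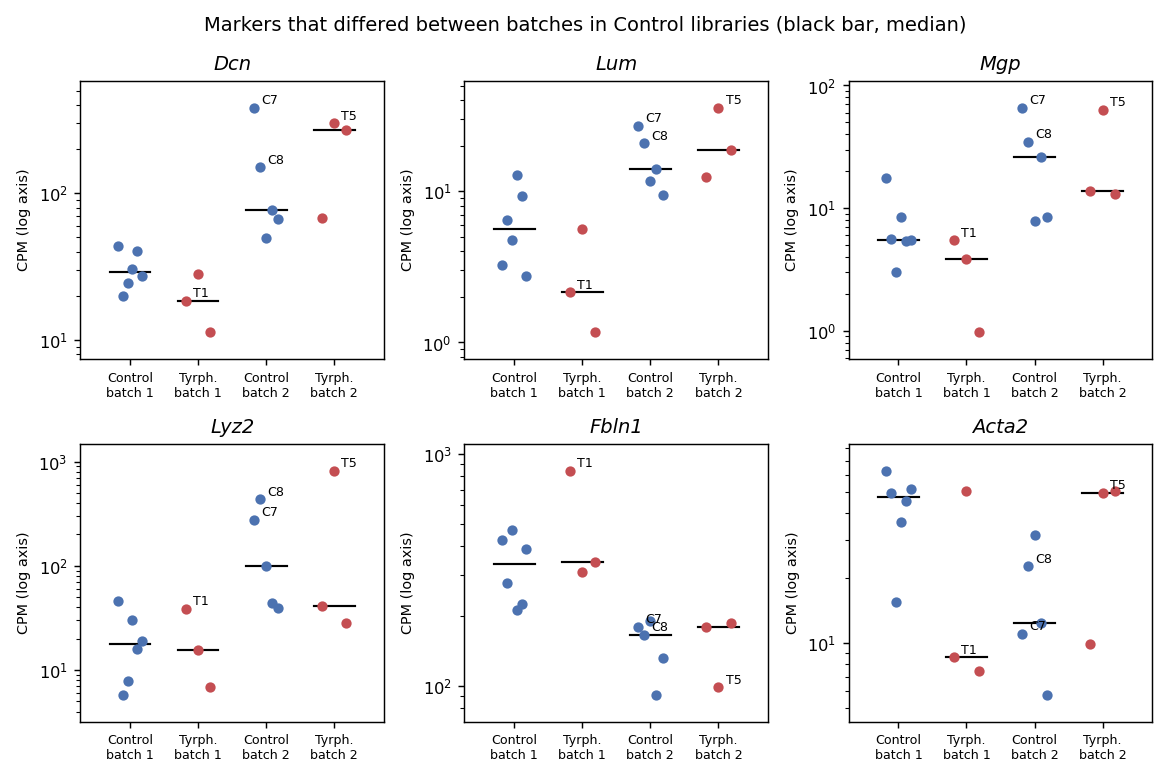
CPM (log axis) of the 6 markers that differed between batches in Control libraries, by treatment and batch, with group medians as black bars. In Dcn every batch 2 library is above every batch 1 library, and in Fbln1 every one is below; Lum, Mgp, Lyz2 and Acta2 overlap in at least 1 group.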

How the data were processed

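Counts per gene symbol were deposited by the authors as 1 table of 25198 rows, of which 21622 had a count. The submitters' processing notes name STAR, HTSeq and the build GRCm38; the strand setting is not given in the sources used here. Differential expression was tested on the counts with edgeR 4.0.16 in R 4.3.3 (filterByExpr, TMM, robust quasi-likelihood F test, batch as a term, Benjamini-Hochberg adjustment over all genes tested), checked on simulated data. The SE is the size of the log2 fold change divided by the square root of F. DESeq2 1.42.0, limma-voom (limma 3.58.1), other scalings, filters and blocks, and omission of libraries were alternatives. Coordinates and exonic lengths are from GENCODE M21. All columns matched samples by name, and none of the 31 library pairs within a group and batch looked like copies of 1 library (chi-square over degrees of freedom 11.8 to 84.1).

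The members and gene lists were chosen with earlier results of these data known. Values are given in full for markers past an adjusted p of 0.05, the best measured marker of each class, and Cyp17a1, Insl3, Myh11, Pdgfra, Pecam1, Cdh5, Ptprc, Adgre1 and Krt19. Other genes are named only where a list had at most 5 calls.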

Additional observations from a re-analysis of the deposited data

Results flagged for a closer look

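Unlogged CPM of 13 measures were searched in 39 groups: Control of batch 1, Control of batch 2 and Tyrphostin of both batches together. In 4 groups, all Tyrphostin, a single library was far from the others. A rate of 1 in 20 would give about 1.95, but only for separate measures and normal values from 1 population. The Tyrphostin group spans both batches, so 1.95 is no measure of chance here. The 4 flags overlap: the immune sum in Tyrphostin 5 is mostly Lyz2, so both flags on them are 1 observation. Lyz2 in Tyrphostin 5 read 819 CPM against 6.83 to 40.7 CPM in the other 5 Tyrphostin libraries. The summed level of the 12 immune markers in the same library was 894 CPM against 21.9 to 58.2 CPM. Pdgfra in Tyrphostin 5 read 77.4 CPM against 3.88 to 15.1 CPM. Fbln1 in Tyrphostin 1 read 846 CPM against 98.6 to 342 CPM.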

How the results depend on the processing

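Over both batches, 0 markers were called with Tyrphostin under all alternatives except the replicate block on title numbers. Over all genes, 1018 were called, against 619 without a batch term, 624 with the replicate block and 478 at an adjusted p of 0.01. The block on title numbers kept only Control 1 to 6, and so no Control library of batch 2. It called 1 of 14 markers, Cdh5 (-1.49, edgeR adjusted p = 0.00549), with 624 of 9133 genes called. Within batch 1 it kept only Control 1 to 3, the 3 libraries highest in Cdh5. There it called 1 of 13 markers, Cdh5, with 848 of 9247 genes called. Whether title numbers pair the samples is not stated. Same-numbered libraries had correlations of deviations from 0.027 to 0.33 over 6 numbers. The highest was for number 1, whose libraries both carry set 1 in their names. Tyrphostin 1 to 6 carry sets 1 to 6, numbers that Control sets share except 3. Correlation by set was not run. The block on set number called 0 of 15 markers and 987 of 9603 genes. Within batch 1, omission of Tyrphostin 2 called 1 of 15 markers (Acta2), with 394 of 9783 genes called. The interaction with no filter called 1 of 40 (Acta2), with 79 of 21622 genes called. Between batches in Control, DESeq2 called 8 of 13 markers (adding Cdh5 and Cyp17a1) and 1361 of 9128 genes, where the main fit called 1004. Total counts called 7 of 13 markers (adding Cyp17a1) and 1188 genes. With no filter, 5 of 40 markers (losing Lyz2 and Mgp, adding Pdgfra) and 1210 of 20697 genes were called. The 6 markers became 2 to 8 when 1 library was left out (3 without Control 2, 2 without Control 7, 8 of 14 without Control 9). Genes called were 1063 of 9313 without Control 7 and 1052 of 9328 without Control 9. Without the Control libraries of set 4, 3 of 14 markers and 902 of 9534 genes were called. That omission, like omission of Control 8 with Tyrphostin 5, was chosen after seeing the data.

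Signs turned for markers near 0. Acta2 read -0.34 with limma-voom, -0.0897 without a batch term, -1.26 with the replicate block and -0.0918 without Control 8 and Tyrphostin 5, and -0.15 to 0.47 with 1 library left out. Lyz2 read -0.0910 with limma-voom and -0.65 without Control 8 and Tyrphostin 5, and -0.86 to 0.69 with 1 library left out. Pdgfra read -0.44 and -0.20 with the blocks by title and by set number and -0.48 without Control 8 and Tyrphostin 5, and -0.62 to 0.38 with 1 library left out. Dcn read 0.16 with total counts, 0.0045 with upper-quartile scaling, 0.016 with limma-voom, 0.032 with no filter, 0.00054 with a CPM filter, 0.48 without a batch term, 0.21 with Control sets summed and 0.37 with the set block, and -0.24 to 0.34 with 1 library left out. Lum read 0.13 without a batch term.

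Without the member of highest mean, the mean summed CPM was 6.84 for theca in Tyrphostin, 10.0 and 8.62 for smooth muscle in Control and Tyrphostin, 124 and 167 for stroma, 5.32 for endothelium in Tyrphostin and 0.911 for epithelium in Control. The cause of these shifts was not tested. Depth limits the 25 markers below the filter, which were tested only in the fit without it.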
